A study of Drosophila melanogaster with 96 samples.

Results

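The odorant binding protein (Obp) genes of Drosophila melanogaster were followed in heads of adult flies over 2 days of constant darkness. A gene was counted when its symbol in the deposited table began with Obp and a digit. That rule found 51 of 17698 genes. Of these, 33 had a level of 1 or more TPM (transcripts per 1000000) in 24 or more of the 96 libraries and were tested among 10568 genes that passed the same filter. TPM is a share of the library per transcript length, so levels can be set side by side between genes.

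The 4 groups were female Achl RNAi, female control, male Achl RNAi and male control heads. Each group had 24 libraries, taken 2 h apart between circadian times (CT) 24 and 70, so CT24 to CT46 is the first dark day sampled and CT48 to CT70 the second. Per the labels, the flies were adults of 3 to 5 days, kept in light-dark cycles and moved to darkness 24 h ahead of the first collection. Per the design text, a library came from a pool of 7 to 8 heads and no time point had a replicate. The labels give the genotype only as Achl_RNAi or control, so neither the driver of the RNAi nor the construct in the controls is known here. Achl is the gene Achilles, the target of the RNAi; by its title the study asks how it bears on circadian mRNA rhythms in either sex.

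Odorant binding proteins are small soluble proteins that support cells secrete into the fluid of olfactory and taste sensilla, where they bind odorants, pheromones and tastants near the receptors. In the fly head most are known from the antenna, the maxillary palp or the proboscis. Some are made outside the chemosensory organs, among them in fat body and glia. The family member lush, also called Obp76a, carries no Obp symbol in the table and was counted with the odour reception genes outside the Obp genes.

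Achl averaged 15.6 ± 2.95 TPM in female RNAi heads and 68.3 ± 21.8 TPM in female control heads, and 22.5 ± 7.65 TPM in male RNAi heads and 77.7 ± 39.1 TPM in male control heads (SD, n = 24 each). Sequencing depth is unknown, because TPM carry no counts. Female libraries fell into sets by the mitochondrial ribosomal RNA mt:lrRNA: 15 RNAi and 14 control libraries had under 50000 TPM of it. Those were all 12 second-day libraries of each genotype plus 3 RNAi and 2 control libraries of the first day. In females the day and this split therefore coincide in all but 5 first-day libraries. No male library was that low. In the male RNAi group, the 8 libraries from CT24 to CT38 stood apart from the later 16 in several Obp genes described below. In bulk heads, fewer cells of a type and less RNA per cell cannot be told apart. The p-values come from 1 model across all 10568 genes with a mean and a 24 h cosine and sine for each group, so they rest on how far single libraries scatter about the fitted courses and on no biological replicate at a time.

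The 51 genes together took 8806 TPM in the median female RNAi library and 10448 TPM in the median female control library. In males the sum was 6888 TPM in RNAi heads and 9661 TPM in control heads. The sum ranged from 4839 to 12823 TPM in female RNAi heads, from 6566 to 12574 TPM in female control heads, from 5454 to 8556 TPM in male RNAi heads and from 7355 to 12083 TPM in male control heads. All groups overlapped in this sum.

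A handful of genes made up most of the sum. Obp57c was the highest in male heads of either genotype, and Obp19d was the next. Obp56e was the highest in female heads, at a median of 1745 TPM in RNAi and 1834 TPM in control heads, while its medians in males were 99.2 TPM in RNAi and 179 TPM in control heads. Obp99c, Obp83b, Obp44a, Obp56d and Obp56g followed, with means over all 96 libraries between 641 and 954 TPM. Obp83a and Obp83b lie side by side and encode the antennal proteins OS-F and OS-E of pheromone-sensing sensilla. At the other end, Obp56c, Obp83g, Obp57d, Obp58b and Obp57e averaged at most 2.58 TPM.

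**Figure D1:**
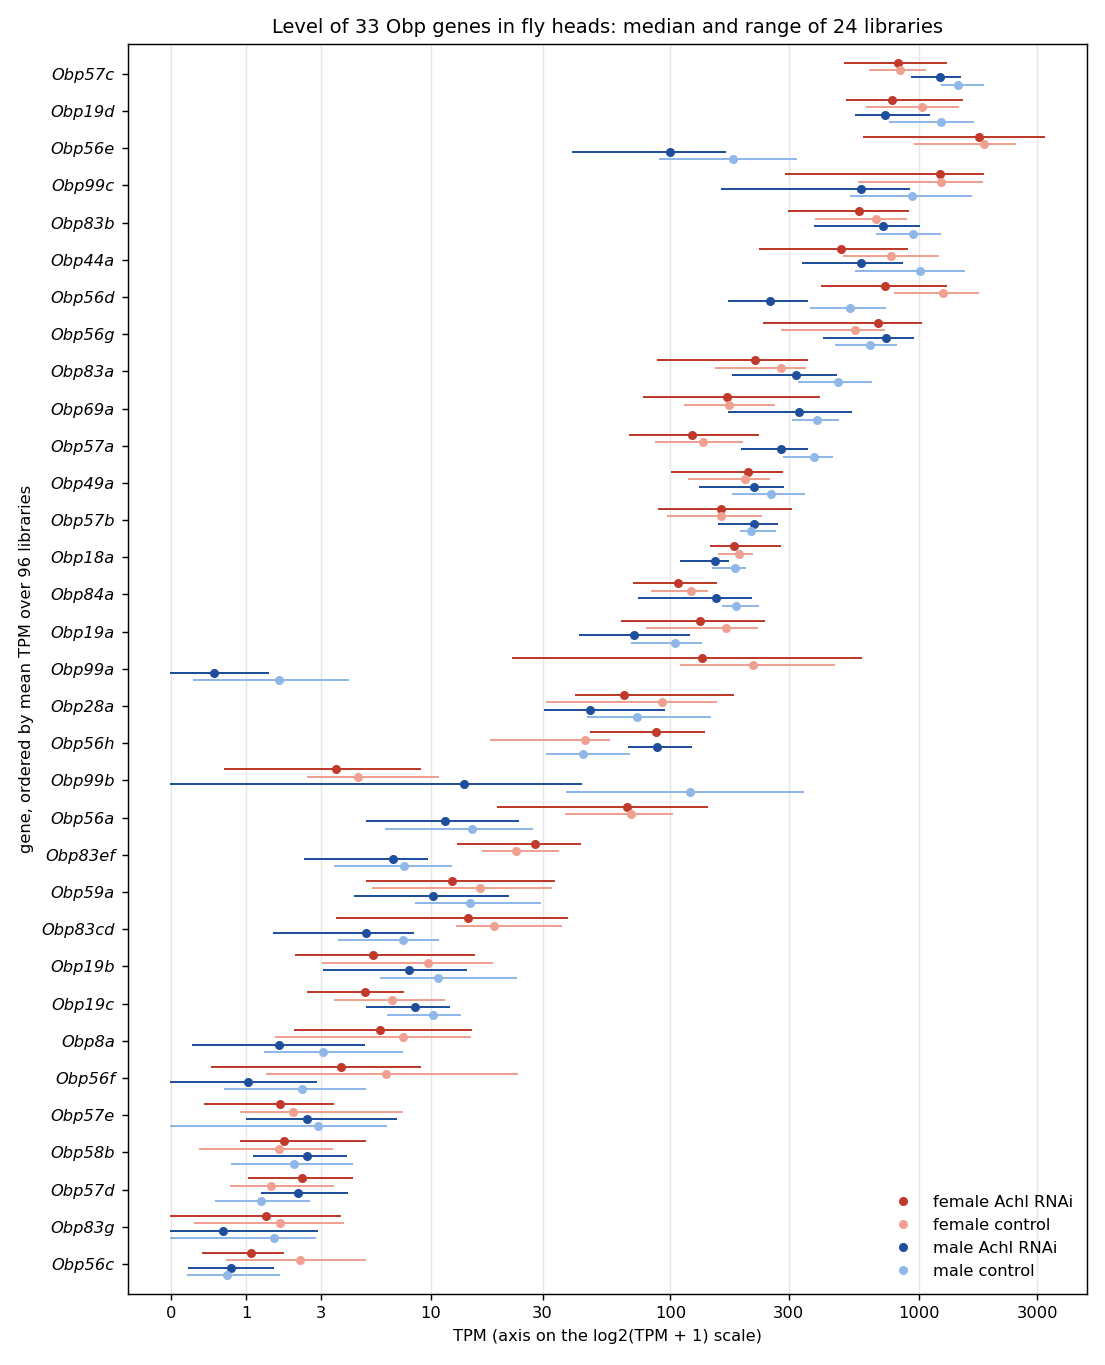
TPM of the 33 tested Obp genes on a log2(TPM + 1) axis, with 1 row per gene; points are medians and lines run from the lowest to the highest of 24 libraries in each group. Obp56e and Obp99a lie far higher in female than in male heads, and Obp99b has a median of 120.2 TPM in male control heads but 4.63 TPM in female control heads.

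The 18 genes below the filter were Obp22a, Obp46a, Obp47a, Obp47b, Obp50a, Obp50b, Obp50c, Obp50d, Obp50e, Obp51a, Obp56b, Obp56i, Obp58c, Obp58d, Obp73a, Obp85a, Obp93a and Obp99d. None exceeded 2.47 TPM in any library, the value Obp99d reached. Obp99d was nearest to the threshold from below, with at least 1 TPM in 20 libraries, and Obp56c nearest from above, with 47 libraries. Obp50d was at 0 in all 96 libraries. Obp50b and Obp50c share their annotated coordinates and had identical values in every library, so their reads cannot be assigned to either gene.

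By the annotation of the dm6 assembly, 29 of the 51 genes lie on chromosome arm 2R, 12 on 3R, 6 on X, 2 on 2L and 2 on 3L. All 6 X-linked genes were tested, against 16 of 29 on 2R. A total of 33 genes lie in 10 groups whose neighbours are less than 20 kb apart, and 18 stand alone. The largest group holds Obp56a to Obp56f at 2R:19697723-19713976, and the X chromosome holds Obp19a, Obp19b, Obp19c and Obp19d at X:20415744-20420979. Obp83cd and Obp83ef overlap on opposite strands of 3R, from 6109642 to 6109733. Obp44a, Obp56e, Obp59a, Obp69a, Obp84a and Obp99c also overlap a gene on the other strand, and Obp57d overlaps Cpr57A on the same strand. The libraries were stranded, but whether strand was used in counting is not given in the sources used here, so reads of these overlaps are uncertain.

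Under Achl RNAi, Obp genes that passed the test mostly fell, as did most genes called in the whole table, while Obp56h and Obp57d rose in both sexes. In females 3 of the 33 genes rose and 12 fell, where 4.7% of all tested genes rose and 55.7% fell. In males 2 rose and 24 fell, where 4.61% of all tested genes rose and 53.5% fell. The median log2 change of the 33 genes was -0.23 in females, against -0.18 over all tested genes, and -0.44 in males, against -0.16 over all tested genes. With each library centred on its own median, which takes the shift of all genes out, 7 Obp genes were higher and 5 lower in RNAi females, and 3 were higher and 15 lower in RNAi males. With that centring 1188 of all tested genes were higher and 1163 lower in RNAi females (22.2% called), and 1549 were higher and 1871 lower in RNAi males (32.4% called). The female genes added as higher were Obp49a, Obp58b, Obp83ef and Obp18a, of which Obp18a changed sign, with 0.13 when centred and -0.04 otherwise. Both genes that rose in males also rose in females (66.7% of the female genes, 100% of the male ones). Of the genes that fell, 11 fell in both sexes, which is 91.7% of those that fell in females and 45.8% of those that fell in males. The matching overlap over all tested genes was not counted, so this sharing cannot be called particular to the Obp genes.

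**Figure D2:**
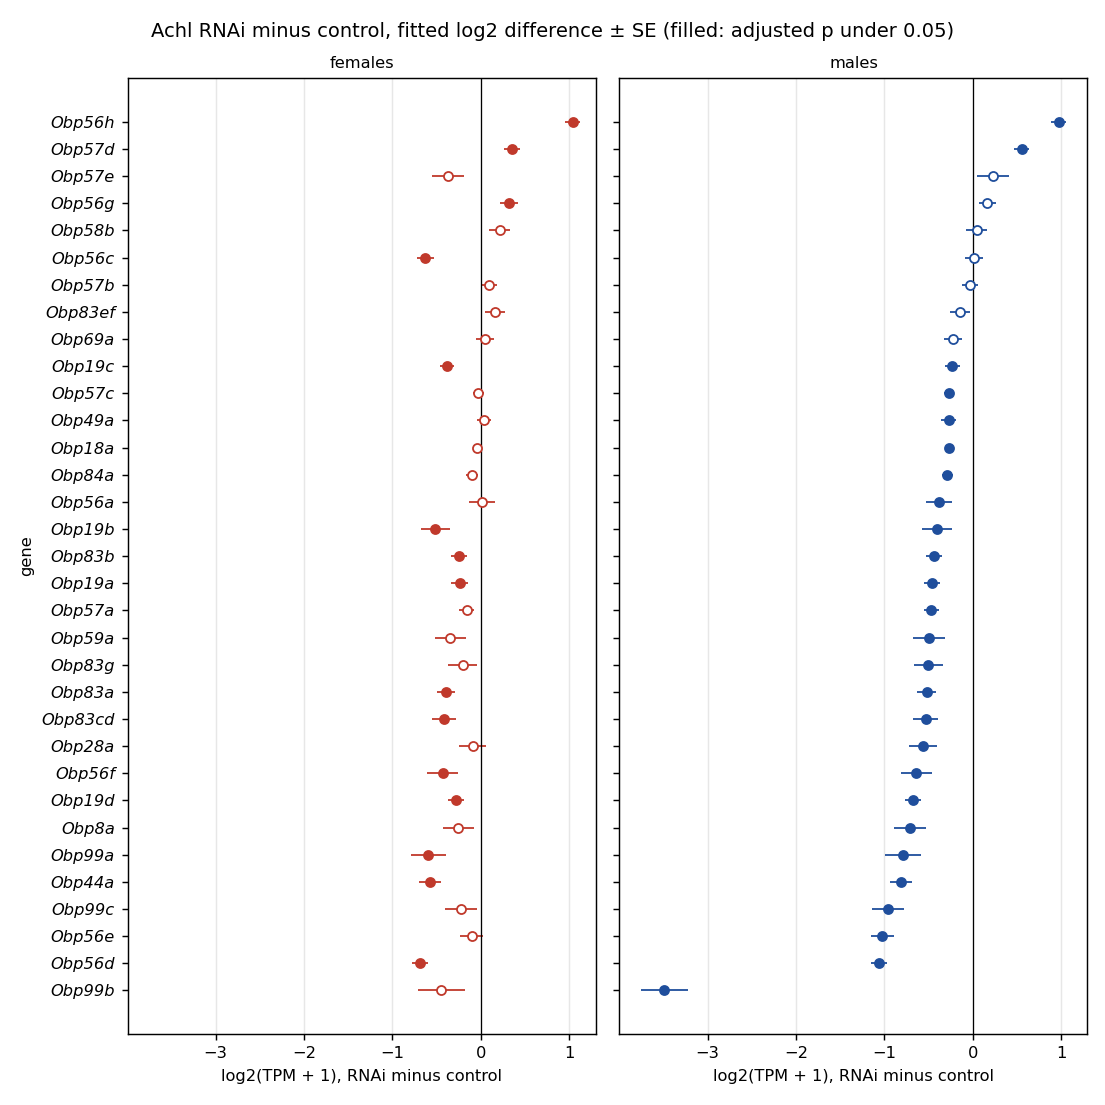
Fitted log2 difference, RNAi minus control, for each of the 33 Obp genes in females (left) and males (right), with SE bars; filled points have an adjusted p under 0.05 and genes are ordered by the male value. Obp56h and Obp57d lie to the right in both panels, and Obp99b lies at -3.49 in males and at -0.45, unfilled, in females.

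Obp56h showed the clearest increase of the family. This gene, on 2R:19815554-19816204, is known for an effect on male mating behaviour and on cuticular hydrocarbons. Its lowest, median and highest values were 47.5, 87.3 and 137 TPM in female RNAi heads, against 18.2, 44.7 and 56.2 TPM in female control heads. In males they were 67.7, 87.9 and 122 TPM in RNAi heads, against 31.2, 44.1 and 68.1 TPM in control heads. The groups overlapped only at the edge: 1 female RNAi library, at CT32, and 2 male RNAi libraries, at CT32 and CT36, lay below the highest control library of their sex. RNAi was higher at the same CT in 24 of 24 pairs in each sex. The log2 change was 1.04 (SE 0.09, adjusted p = 4.74e-18) in females and 0.97 (SE 0.09, adjusted p = 1.21e-16) in males. Within the female sets it was 1.13 in low mt:lrRNA libraries and 0.82 in high ones, and without the male libraries of CT24 to CT38 it was 1.11 in males.

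Obp57d was the other gene that rose in both sexes, at a low level. With its neighbour Obp57e it is known for taste responses to plant acids and host choice in Drosophila. It averaged 2.40 ± 0.850 TPM in female RNAi heads and 1.64 ± 0.588 TPM in female control heads, and 2.36 ± 0.630 TPM in male RNAi heads and 1.30 ± 0.442 TPM in male control heads (SD, n = 24 each). The log2(TPM + 1) change was 0.35 (SE 0.09, adjusted p = 0.000339) in females, with RNAi higher in 19 of 24 pairs, and 0.55 (SE 0.09, adjusted p = 7.54e-08) in males, with RNAi higher in 23 of 24 pairs. The pseudocount understates changes of genes at this level. Obp57e did not pass the test in either sex, with -0.37 (adjusted p = 0.0728) in females and 0.23 (adjusted p = 0.271) in males.

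Obp56g, which is also expressed in the male reproductive tract, rose in females, where it averaged 673 ± 172 TPM in RNAi and 537 ± 132 TPM in control heads (SD, n = 24 each; log2 change 0.32, SE 0.10, adjusted p = 0.00594, higher in 21 of 24 pairs). In males it averaged 719 ± 135 TPM in RNAi and 635 ± 92.7 TPM in control heads, with a log2 change of 0.17 (SE 0.10, adjusted p = 0.148). Within high mt:lrRNA libraries the female change was 0.27 and not called (adjusted p = 0.0929). The difference of the effect between the sexes was 0.15 (adjusted p = 0.591).

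Obp56d fell in both sexes. Its lowest, median and highest values were 408, 736 and 1295 TPM in female RNAi heads, against 806, 1251 and 1736 TPM in female control heads. In males they were 173, 252 and 356 TPM in RNAi heads, against 370.2, 529 and 731 TPM in control heads. The female groups overlapped, and every male RNAi library lay below every male control library, the only 1 of the 33 genes for which the RNAi and control groups of a sex did not overlap. Over all tested genes, 0.577% lay lower in RNAi males with no overlap and 0.681% higher, and in females 0.132% lay lower and 0.284% higher. RNAi was lower in 24 of 24 pairs in each sex. The log2 change was -0.69 (SE 0.09, adjusted p = 7.54e-10) in females, or -0.68 and -0.75 within low and high mt:lrRNA libraries, and -1.06 (SE 0.09, adjusted p = 1.7e-17) in males, or -0.97 without the male libraries of CT24 to CT38.

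Obp44a, which is expressed by glia of the brain and overlaps Pabp2 on the other strand, also fell in both sexes. It ranged from 231 to 902 TPM with a median of 486 TPM in female RNAi heads, against 500.4 to 1202 TPM with a median of 776 TPM in female control heads. In males it ranged from 342 to 856 TPM with a median of 586 TPM in RNAi heads, against 562 to 1524 TPM with a median of 1014 TPM in control heads. All groups overlapped within their sex. The log2 change was -0.58 (SE 0.12, adjusted p = 5.39e-05, lower in 19 of 24 pairs) in females and -0.81 (SE 0.12, adjusted p = 4.72e-08, lower in 23 of 24 pairs) in males. In females it was -0.32 (adjusted p = 0.0909) on the first day alone and -0.84 on the second. Of 10 tested glia markers, 10 fell in females and 9 in males, where 55.7% and 53.5% of all tested genes fell. The glia markers had median log2 changes of -0.26 in each sex, and their sum had medians of 1482 TPM in female RNAi heads, 1756 TPM in female control heads, 2310 TPM in male RNAi heads and 2768 TPM in male control heads. Their part in the Obp44a change was not tested.

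Obp99a, on 3R next to Obp99c, fell in both sexes, at very different levels. It had lowest, median and highest values of 22.7, 134 and 589 TPM in female RNAi heads, against 109.9, 216 and 456 TPM in female control heads. The RNAi libraries lay on both sides of the control range, and RNAi was lower in 16 of 24 pairs. The log2 change was -0.59 (SE 0.20, adjusted p = 0.00909) over both days, -0.17 (adjusted p = 0.62) on the first day and -1.02 (adjusted p = 0.0034) on the second, and with median centring it was -0.43 and not called (adjusted p = 0.117). In males it averaged 0.517 ± 0.413 TPM in RNAi and 1.69 ± 0.947 TPM in control heads (SD, n = 24 each), with a log2(TPM + 1) change of -0.79 (SE 0.20, adjusted p = 0.000707, lower in 23 of 24 pairs). Obp99a had at least 1 TPM in 68 of the 96 libraries, every female one among them, and was at 0 in 4 male libraries. It passed the filter only through its female values, and the male change is that of a gene near the floor.

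The 4 Obp19 genes on X fell in both sexes. Obp19d, an abundant antennal and proboscis protein gene, averaged 873 ± 290.1 TPM in female RNAi and 1032 ± 206 TPM in female control heads, and 771 ± 145 TPM in male RNAi and 1229 ± 209.9 TPM in male control heads (SD, n = 24 each). Its log2 change was -0.28 (SE 0.09, adjusted p = 0.0055) in females and -0.68 (SE 0.09, adjusted p = 1.09e-09, lower in 24 of 24 pairs) in males. Obp19b had a log2 change of -0.51 (SE 0.17, adjusted p = 0.00746) in females and -0.41 (SE 0.17, adjusted p = 0.0341) in males, at means between 6.88 TPM in female RNAi heads and 11.1 TPM in male control heads. Obp19a and Obp19c changed by -0.24 and -0.38 in females and by -0.46 and -0.23 in males. In females, median centring took Obp19a, Obp19b and Obp19d out of the calls (adjusted p = 0.516, 0.0808 and 0.248). On the first day alone those 3 were not called in females either, at -0.19, -0.35 and -0.20. The Obp19a call in females was lost without the RNAi library at CT32 (adjusted p = 0.0547), and the Obp19b call in males without the control library at CT44 (adjusted p = 0.0604) or without the male libraries of CT24 to CT38 (-0.26, adjusted p = 0.394), when Obp19c was at -0.19 (adjusted p = 0.174).

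Among the antennal genes, Obp83a and Obp83b fell in both sexes. Obp83a averaged 211 ± 71.6 TPM in female RNAi and 266 ± 49.3 TPM in female control heads, and 334 ± 77.8 TPM in male RNAi and 473 ± 82.3 TPM in male control heads (SD, n = 24 each), with log2 changes of -0.39 (SE 0.11, adjusted p = 0.00123) in females and -0.52 (SE 0.11, adjusted p = 3.3e-05) in males. Within low mt:lrRNA libraries the female change was -0.23 (adjusted p = 0.0505) and within high ones -0.72. Obp83b changed by -0.25 in females and -0.44 in males, and in females by -0.18 within low mt:lrRNA libraries (adjusted p = 0.0939). Obp28a, a gene of antennal basiconic sensilla, changed by -0.09 (adjusted p = 0.602) in females and fell by 0.57 on the log2 scale in males (SE 0.16, adjusted p = 0.00178), and that call was lost without the male libraries of CT24 to CT38 (-0.40, adjusted p = 0.14). Obp84a fell in males (-0.29, adjusted p = 0.000243), as did Obp59a, a gene needed for humidity sensing (-0.50, adjusted p = 0.0145, and -0.24, adjusted p = 0.428, without those times). Obp69a, a further antennal gene, did not pass in either sex.

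The largest change was that of Obp99b in males. This gene, also named turn on sex-specificity, is known for expression in fat cells of the male head under the sex determination genes. Its lowest, median and highest values were 0, 13.96 and 43.3 TPM in male RNAi heads, against 37.7, 120.2 and 344 TPM in male control heads, and RNAi was lower in 24 of 24 pairs. The male RNAi libraries from CT24 to CT38 held 0 to 4.86 TPM, no more than female heads reached, and those from CT40 on held 8.72 to 43.3 TPM. Male control values were highest at CT28, 344 TPM, and CT40, 251 TPM, and lowest at CT70, 37.7 TPM. The fitted change was -3.49 (SE 0.27, adjusted p = 5.02e-20), or -2.26 without the male libraries of CT24 to CT38, and within days it was -4.88 on the first and -2.09 on the second. In females the gene ranged from 0.650 to 8.98 TPM in RNAi heads, against 2.53 to 10.8 TPM in control heads, and the change of -0.45 (SE 0.27) was not called (adjusted p = 0.138).

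Obp99c, Obp56e and Obp8a also fell in males and not by the test in females. Obp99c had lowest, median and highest values of 162, 588 and 914 TPM in male RNAi heads, against 536, 939.9 and 1629.8 TPM in male control heads. Its 8 male RNAi libraries of CT24 to CT38 held 162 to 420 TPM and lay below all the other libraries of both male groups, whose lowest was 499 TPM. The change was -0.96 (SE 0.18, adjusted p = 5.41e-06, lower in 23 of 24 pairs), -0.54 (adjusted p = 0.0439) without those times, and in females -0.23 (adjusted p = 0.259).

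Obp56e had lowest, median and highest values of 40.2, 99.2 and 166 TPM in male RNAi heads, against 91.1, 179 and 320.4 TPM in male control heads. The groups overlapped, and RNAi was lower in 23 of 24 pairs, with a log2 change of -1.02 (SE 0.13, adjusted p = 9.65e-11) over all times and -0.86 without the male libraries of CT24 to CT38. In females it ranged from 605 to 3188 TPM in RNAi heads, against 969.7 to 2432 TPM in control heads, and the change was -0.11 (adjusted p = 0.463). Obp8a averaged 1.74 ± 1.06 TPM in male RNAi and 3.44 ± 1.63 TPM in male control heads (SD, n = 24 each), with a log2(TPM + 1) change of -0.71 (SE 0.18, adjusted p = 0.000564), which was lost without the male libraries of CT24 to CT38 (-0.51, adjusted p = 0.0866).

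Of the other genes that fell in males, Obp56f (-0.64), Obp83cd (-0.53) and Obp83g (-0.50) were at low levels, and Obp57a (-0.47), Obp56a (-0.38), Obp18a (-0.27), Obp49a (-0.27) and Obp57c (-0.27) changed less. Obp49a, whose product is known to let bitter compounds suppress sweet taste, averaged 215 ± 41.7 TPM in male RNAi and 258 ± 41.0 TPM in male control heads (SD, n = 24 each). Obp57c was lower under RNAi in 24 of 24 male pairs although its change was small, and its medians were 1216 TPM in male RNAi and 1435 TPM in male control heads. Without the male libraries of CT24 to CT38, times left out after these values were seen, 2 Obp genes rose and 15 fell in males, where 373 of all tested genes rose and 2372 fell (26% called). Obp56f (-0.59, adjusted p = 0.0577), Obp83cd (-0.24), Obp83g (-0.26), Obp56a (-0.09) and Obp49a (-0.11) were then no longer called. In females, where Obp56f (-0.43) and Obp83cd (-0.41) also fell, neither was called within low mt:lrRNA libraries (-0.28 and -0.08), and the Obp56f call was lost without the RNAi library at CT38 (adjusted p = 0.0694).

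Obp56c fell in females and was not called in males. It averaged 1.02 ± 0.389 TPM in female RNAi and 2.27 ± 1.21 TPM in female control heads, and 0.759 ± 0.363 TPM in male RNAi and 0.754 ± 0.455 TPM in male control heads (SD, n = 24 each). The log2(TPM + 1) change was -0.63 (SE 0.10, adjusted p = 1.59e-07) in females and 0.02 (adjusted p = 0.893) in males.

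**Figure D3:**
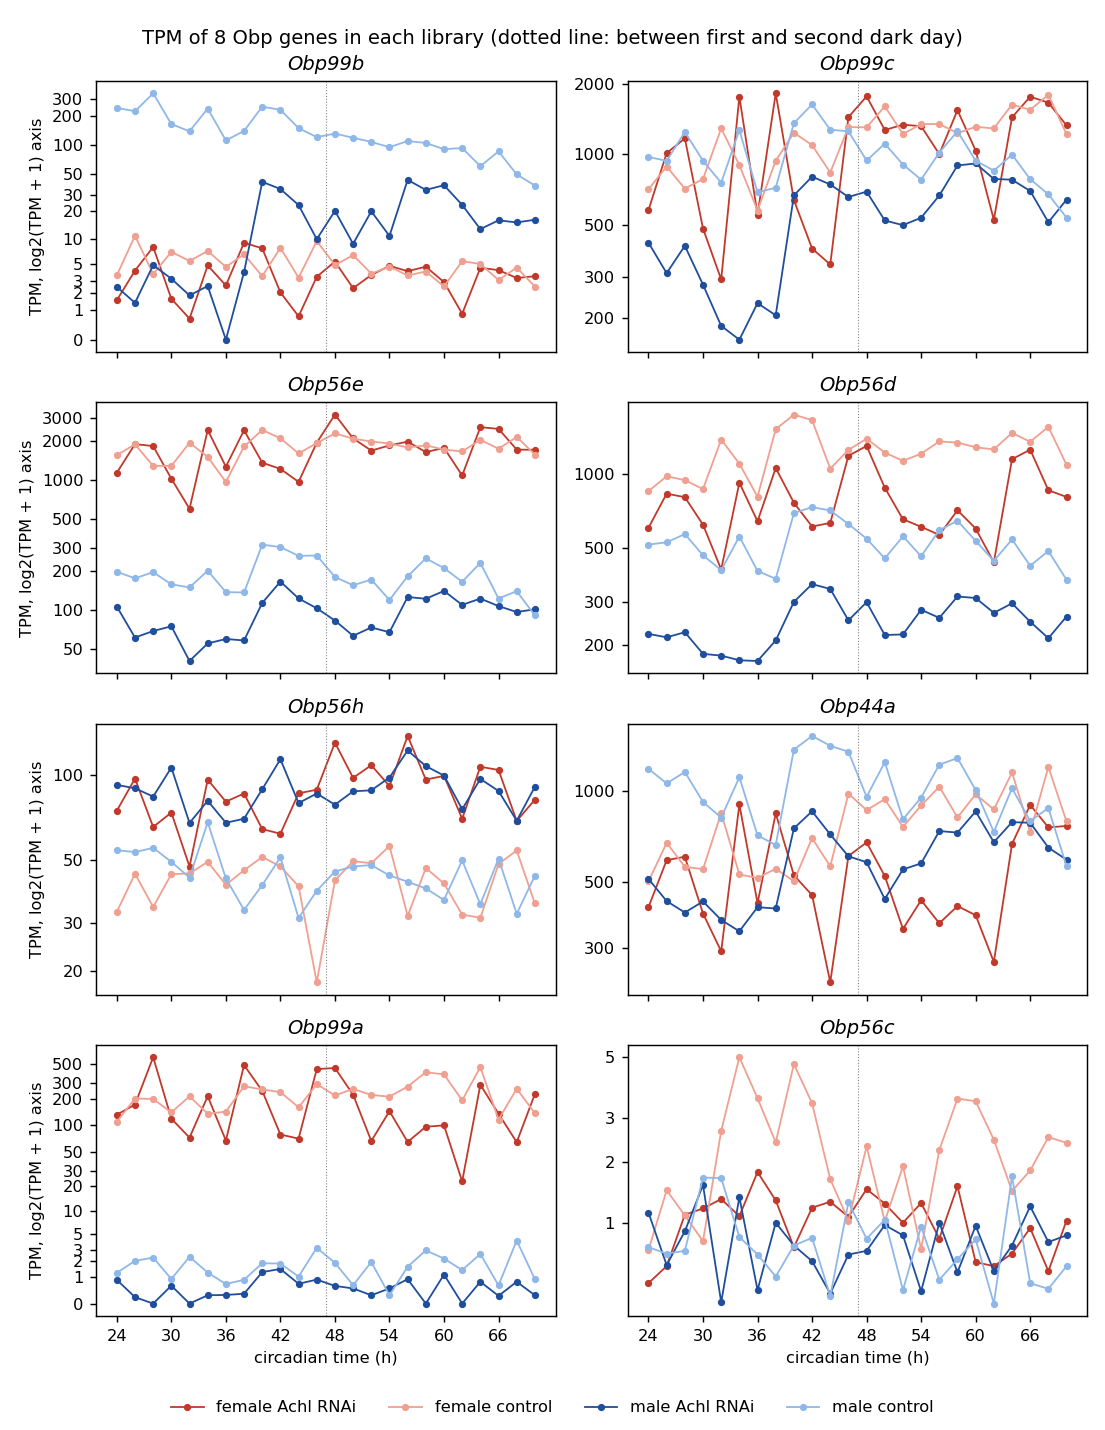
TPM of 8 Obp genes in each of the 96 libraries against circadian time in hours, on log2(TPM + 1) axes that differ between panels; lines join the 24 libraries of a group. Male RNAi heads hold at most 4.86 TPM of Obp99b up to CT38 and at least 8.72 TPM from CT40 on, and Obp56h of RNAi heads lies above that of control heads in both sexes at each time.

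The effect of RNAi differed between the sexes, by the interaction of sex and RNAi in the same fit, for 8 of the 33 genes. The female effect was the higher in 7 of them and the lower in 1, where 5.75% and 8.37% of all tested genes were called in these directions. The female minus male difference was 3.04 (SE 0.38, adjusted p = 2.07e-09) for Obp99b, 0.92 (SE 0.18, adjusted p = 8.31e-05) for Obp56e, 0.74 (SE 0.25, adjusted p = 0.0365) for Obp99c and -0.64 (SE 0.14, adjusted p = 0.000489) for Obp56c. It was between 0.23 and 0.39 for Obp19d, Obp56d, Obp57c and Obp18a. Without the male libraries of CT24 to CT38, 4 genes were called, Obp99b (1.81), Obp56e (0.75), Obp56c (-0.67) and Obp18a (0.21), while Obp99c was at 0.32 (adjusted p = 0.59). Of all tested genes, 6.81% were called without those libraries. On the first day alone 11 genes were called, all with the female effect the higher, where 16% of all tested genes were called. On the second day alone 3 genes were called, where 4.85% of all tested genes were. Obp19d, Obp56d, Obp57c, Obp18a and Obp99c were not called on that day. Leaving out 1 library ended the calls of Obp56d (female control CT36, adjusted p = 0.0636), Obp57c (female RNAi CT36, adjusted p = 0.0609) and Obp99c (male RNAi CT34, adjusted p = 0.0573).

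Markers of other cells moved with RNAi too, as most tested genes did. Of all tested genes, 4.7% rose and 55.7% fell in females, and 4.61% rose and 53.5% fell in males. Of 11 tested fat body genes, 2 rose and 5 fell in females, and 0 rose and 9 fell in males, with median log2 changes of -0.13 and -0.57. Lsp2, a storage protein of fat body, had a median of 21.9 TPM and a mean of 298 ± 581 TPM in female RNAi heads, against a median of 50.9 TPM and a mean of 76.3 ± 80.0 TPM in female control heads (SD, n = 24 each). Its female libraries ranged from 0.890 to 2268 TPM under RNAi and from 1.49 to 349 TPM in controls, and the change of -0.07 on the log2 scale was not called (adjusted p = 0.915). It ranged from 4.23 to 338 TPM in male RNAi heads, against 287 to 800 TPM in male control heads, with a change of -3.95 (SE 0.55, adjusted p = 3.67e-09) in males. Lsp2 alone of the fat body genes was followed library by library, and the others were not set against Obp99b one by one. In male RNAi heads Lsp2 stayed at 4.23 to 12.6 TPM from CT24 to CT38, the times at which Obp99b was lowest. The summed fat body genes of male RNAi heads ranged from 4276 to 5987 TPM at those times and from 4451 to 6652 TPM later. Desat1 and apolpp, with means of 2968 and 1582 TPM in male RNAi heads, made up most of that sum. A change in genes as low as Lsp2 would show little in it. The fat body sum had a median of 5521 TPM in male RNAi and 7041 TPM in male control heads, and Fbp1 and Fbp2 were under 1 TPM on average. The part of fat body content in the Obp99b and Obp99c values was not tested.

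For the lists that follow, the share of all tested genes that fell was 55.7% in females and 53.5% in males. Of 29 tested odour reception genes outside the Obp genes, such as receptors, lush and Snmp1, 0 rose and 14 fell in females, and 0 rose and 25 fell in males. Their median log2 changes were -0.18 and -0.33, and their summed level had medians of 1968 TPM in female RNAi heads, 2243 TPM in female control heads, 1912 TPM in male RNAi heads and 2598 TPM in male control heads. Of the 32 listed genes, Or65a, Ir84a and Ir93a were under 1 TPM on average. Of 7 tested gustatory genes, 2 fell in females and 4 in males, and 0 rose. The numbers that rose and fell in females and in males were 0 and 10, and 0 and 10, of 12 photoreceptor genes, 0 and 6, and 0 and 1, of 8 neuron genes, and 0 and 3, and 0 and 2, of 5 muscle genes. They were 3 and 2, and 0 and 3, of 6 hemocyte genes, and 1 and 1, and 0 and 2, of 4 female fat body genes. No gene of the male accessory gland or ovary lists passed the filter, and the highest summed level in a library was 5.32 TPM for accessory gland genes and 3.97 TPM for ovary genes.

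Many Obp genes differed between the sexes, as did most tested genes, with Obp99a and Obp56e differing most strongly towards females and Obp99b towards males. In RNAi heads 13 of the 33 genes were higher and 10 lower in females than in males, where 32.7% and 41.3% of all tested genes were called. In control heads 11 were higher and 14 lower in females, where 27.7% and 40.5% of all tested genes were called. Of these, 9 were higher in females in both genotypes (69.2% of the RNAi genes and 81.8% of the control genes), and 9 were lower in both (90% of the RNAi genes and 64.3% of the control genes). That overlap was not counted over all tested genes either. The share of the mitochondrially encoded genes differed between the sexes. Without them the split was 12 higher and 16 lower in RNAi and 10 and 17 in control heads. Over all tested genes it was then 2064 and 5980, and 1874 and 5846. On the second day alone control heads had 15 higher and 9 lower, where all tested genes had 4333 and 3705. With only females of low mt:lrRNA against all males they had 14 and 10, where all tested genes had 4222 and 3833. With only females of high mt:lrRNA they had 10 and 16, where all tested genes had 1495 and 5201. On the second day and with these female sets, in turn, RNAi heads had 14 and 10, 15 and 10, and 11 and 14. All tested genes there had 4002 and 3974, 4455 and 3983, and 1797 and 5195. The sexes did not overlap for 4 Obp genes higher in females and 0 lower in RNAi heads, where 1.7% and 10.1% of all tested genes did not overlap in these directions. In control heads they did not overlap for 6 higher and 5 lower, where 2.18% and 9.16% of all tested genes did not.

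**Figure D4:**
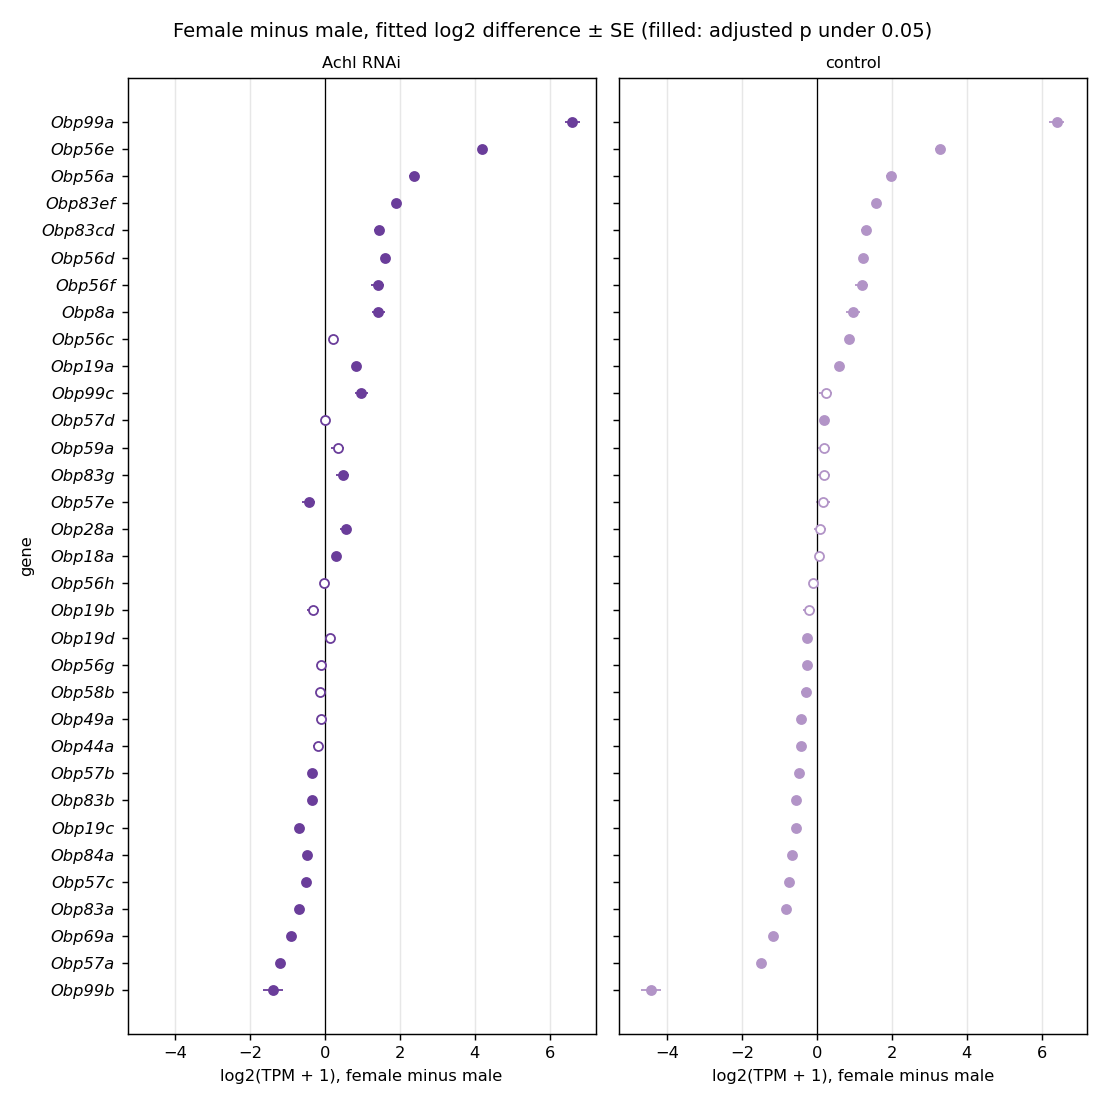
Fitted log2 difference, female minus male, for each of the 33 Obp genes in RNAi heads (left) and control heads (right), with SE bars; filled points have an adjusted p under 0.05 and genes are ordered by the control value. Obp99a lies at 6.60 in RNAi and 6.40 in control heads, and Obp99b at -1.40 in RNAi and -4.45 in control heads.

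Obp99a and Obp99b, both on 3R, differed between the sexes in opposite directions, and in control heads they had the largest sex differences of the 33 genes. Obp99a averaged 189.7 ± 154 TPM in female RNAi and 0.517 ± 0.413 TPM in male RNAi heads, and 229 ± 88.8 TPM in female control and 1.69 ± 0.947 TPM in male control heads (SD, n = 24 each). Its sexes did not overlap in either genotype, and the log2(TPM + 1) difference was 6.60 in RNAi and 6.40 in control heads (SE 0.20 each, adjusted p = 4.72e-48 and 4.94e-47). Obp99a passed the filter only through its female values, and with male values near the floor the size of its difference is uncertain. Obp99b averaged 3.78 ± 2.20 TPM in female RNAi and 16.2 ± 13.6 TPM in male RNAi heads, and 5.15 ± 2.11 TPM in female control and 144 ± 75.2 TPM in male control heads. The control groups did not overlap and the RNAi groups did. The difference was -1.40 (SE 0.27, adjusted p = 2.7e-06) in RNAi heads, where it was -0.63 on the first day (adjusted p = 0.113) and -2.18 on the second, and -4.45 (SE 0.27, adjusted p = 3.66e-27) in control heads.

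Of the 5 tested genes of the Obp56a to Obp56f group, 4 in RNAi heads and 5 in control heads were called higher in females. Obp56e was 18.6 times higher in female than in male RNAi heads and 9.51 times higher in female than in male control heads by the ratio of means, with no overlap in either genotype (log2 difference 4.20 and 3.28, SE 0.13 each, adjusted p = 3.26e-48 and 3.51e-40). Obp56a had lowest, median and highest values of 19.6, 66.7 and 140.1 TPM in female RNAi heads, against 5.10, 11.6 and 23.6 TPM in male RNAi heads, and 37.3, 69.1 and 101 TPM in female control heads, against 6.31, 15.1 and 27.2 TPM in male control heads. Its control groups did not overlap, and its RNAi groups overlapped through the female CT32 library. The log2 difference of Obp56a was 2.37 in RNAi and 1.98 in control heads (SE 0.14 each). Obp56d differed by 1.60 and 1.23 (SE 0.09 each) and Obp56f by 1.40 and 1.20 (SE 0.18 each) in RNAi and control heads, all called. Obp56c differed by 0.20 in RNAi (adjusted p = 0.0618) and 0.85 in control heads (SE 0.10, adjusted p = 2.6e-12).

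Obp56g and Obp56h, farther along 2R, did not follow that lead. Obp56h was at -0.03 (adjusted p = 0.753) in RNAi and -0.10 (adjusted p = 0.314) in control heads. Obp56g was at -0.12 (adjusted p = 0.262) in RNAi and -0.27 (adjusted p = 0.0134) in control heads, where it was 0.01 on the second day alone and not called.

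The overlapping pair Obp83cd and Obp83ef was higher in females, while Obp83a and Obp83b, on the same arm, were higher in males. Obp83ef averaged 28.4 ± 9.41 TPM in female RNAi and 6.83 ± 2.02 TPM in male RNAi heads, and 24.5 ± 5.43 TPM in female control and 7.58 ± 2.06 TPM in male control heads (SD, n = 24 each), with no overlap between the sexes and differences of 1.89 and 1.58 (SE 0.11 each). Obp83cd differed by 1.43 in RNAi and 1.32 in control heads (SE 0.14 each). Obp83a differed by -0.71 and -0.83 (SE 0.11 each) and Obp83b by -0.36 and -0.55 (SE 0.09 each), in RNAi and control heads. With only the female libraries of low mt:lrRNA kept, the Obp83b difference in RNAi heads was -0.12 and not called (adjusted p = 0.174). All male libraries stayed in that fit, and none was that low. Reads from the overlap of Obp83cd and Obp83ef could count for either gene.

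The Obp57a to Obp57c group was higher in males. Obp57a had lowest, median and highest values of 68.3, 123 and 226 TPM in female RNAi heads, against 195, 280.2 and 355 TPM in male RNAi heads, and 87.3, 136 and 195 TPM in female control heads, against 287, 380.0 and 449.6 TPM in male control heads. The control groups did not overlap. The difference was -1.20 (SE 0.08, adjusted p = 4.54e-24) in RNAi and -1.51 (SE 0.08, adjusted p = 7.26e-30) in control heads. Obp57c differed by -0.52 and -0.76 (SE 0.06 each) and Obp57b by -0.36 and -0.48 (SE 0.09 each), all called. With only the female libraries of high mt:lrRNA, all of the first day, the Obp57b difference in RNAi heads was 0.09 and not called (adjusted p = 0.227). Males of both days stayed in that fit. The male lead extended to the antennal genes Obp69a, at -0.92 in RNAi and -1.19 in control heads (SE 0.10 each), and Obp84a, at -0.48 and -0.67 (SE 0.07 each). Obp69a is known in flies for a part in social responses to pheromone, and its control groups did not overlap, nor did those of Obp84a.

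On the X chromosome Obp8a and Obp19a were higher in females, by 1.42 and 0.81 in RNAi and by 0.96 and 0.59 in control heads, and Obp19c was lower, by 0.71 in RNAi and 0.56 in control heads on the log2 scale. On the first day alone Obp8a was at 0.30 in control heads and not called (adjusted p = 0.265). Obp99c was called in RNAi heads only, where it averaged 1102 ± 510.1 TPM in females and 551 ± 231 TPM in males (SD, n = 24 each; difference 0.96, SE 0.18, adjusted p = 1.45e-06). Without the male libraries of CT24 to CT38 that difference was 0.52 (adjusted p = 0.0122). With only high mt:lrRNA females, all of the first day, against males of both days it was 0.11 and not called (adjusted p = 0.667). In control heads it averaged 1170.0 ± 318 TPM in females and 992 ± 261 TPM in males (difference 0.23, adjusted p = 0.255). Obp28a likewise differed by 0.54 (SE 0.16, adjusted p = 0.0014) in RNAi heads and by 0.07 (adjusted p = 0.696) in control heads. Its RNAi call was lost without those times (0.31, adjusted p = 0.133) and with only the high mt:lrRNA females against all males (0.07, adjusted p = 0.726). Neuron and glia genes, 8 of 8 and 10 of 10 of which were lower in females in both genotypes, moved with sex as well. Of 29 odour reception genes 5 were higher and 12 lower in RNAi and 1 higher and 16 lower in control females. Over all tested genes 32.7% were higher and 41.3% lower in RNAi females, and 27.7% higher and 40.5% lower in control females. The part of the neuron, glia and odour reception genes in the Obp differences was not tested.

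Daily rhythms were called for a single Obp gene in a single group. Rhythms were called for 0 of 33 genes in female RNAi, 1 in female control, 0 in male RNAi and 0 in male control heads, where 1.4%, 1.6%, 1.02% and 1.26% of all tested genes were called. At an unadjusted p under 0.05 the counts were 6, 1, 4 and 0, where 10.8%, 9.22%, 15.1% and 5.64% of all tested genes had such a p. The 1 gene was Obp56c in female control heads, with a fitted peak-to-trough ratio of 2.00 on the TPM + 1 scale and a peak at CT13.6 (SE 0.77 h, adjusted p = 0.00257). Its highest values were 5.00 TPM at CT34 and 4.73 TPM at CT40 on the first day and 3.56 TPM at CT58 on the second, and its lowest was 0.670 TPM at CT24. The level is low, and the call was lost with a pseudocount of 0.1 TPM and within low mt:lrRNA libraries. In female RNAi heads Obp56c stayed between 0.340 and 1.80 TPM.

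A change of rhythm by RNAi was called for 0 of 33 genes in either sex, where 0.0189% of all tested genes were called in females and 0% in males. At an unadjusted p under 0.05 there were 3 genes in females and 1 in males, where 7.44% and 1.89% of all tested genes had such a p. The smallest adjusted p was 0.371, for Obp56c in females. In female RNAi heads the lowest adjusted p of a rhythm was 0.157, for Obp19d, with a ratio of 1.52 and a peak at CT20.2 (SE 1.13 h). These p-values do not show that the genes lack a rhythm.

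The first and second dark day differed for many Obp genes in females, as for most tested genes. In each female group 20 of the 33 Obp genes (60.6%) were called, while 6185 of 10568 tested genes were called in RNAi and 6314 in control heads. In female RNAi heads 14 genes were higher and 6 lower on the second day, where 50.1% and 8.41% of all tested genes were called. In female control heads 15 were higher and 5 lower, where 47.3% and 12.4% of all tested genes were called. With median centring the splits were 6 higher and 8 lower in RNAi and 10 higher and 7 lower in control heads. Over all tested genes they were 2333 and 3088 (51.3% called), and 2614 and 2805 (51.3% called). Without mitochondrially encoded genes the Obp splits were 7 higher and 6 lower, and 10 higher and 7 lower. Over all tested genes that setting gave 3207 and 1911 (48.5% called), and 2464 and 2598 (48% called). With log2 mt:lrRNA as a covariate 9 Obp genes were called in RNAi heads, 3 higher and 6 lower, where 2768 of 10568 tested genes (26.2%) were called, and 0 in control heads, where 0 of all tested genes were called. The day and mt:lrRNA nearly coincide in females, so that fit can hardly tell them apart, and calls lost in it do not show which of them the differences follow.

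**Figure D5:**
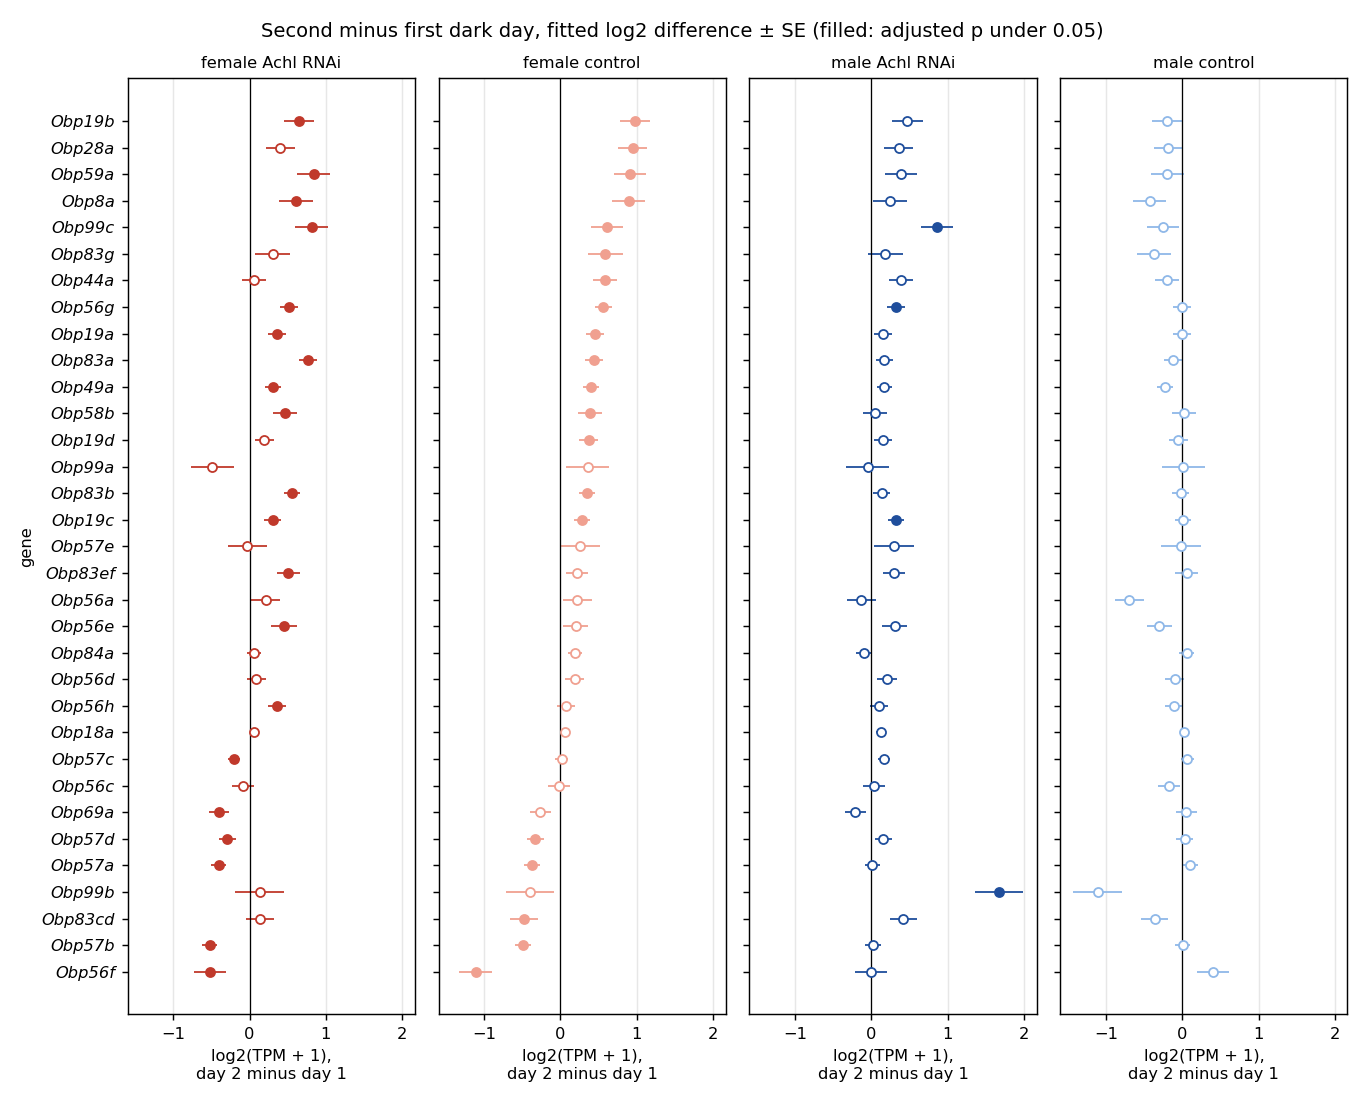
Fitted log2 difference, second minus first dark day, for each of the 33 Obp genes in the 4 groups, with SE bars; filled points have an adjusted p under 0.05 and genes are ordered by the female control value. Female groups have 20 filled points each, male RNAi heads 4 and male control heads 0.

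The genes of lowest p in female RNAi heads were Obp83a, Obp57b, Obp83b, Obp56g, Obp57a and Obp59a. Obp83a averaged 264 ± 49.4 TPM on the second day and 158 ± 46.6 TPM on the first (SD, n = 12 each; 0.77, SE 0.12, adjusted p = 1.91e-07). Obp57b went the other way, with 142 ± 24.4 TPM on the second day and 213 ± 61.3 TPM on the first (-0.52, SE 0.10, adjusted p = 1.5e-05). Obp83b, Obp56g and Obp59a were higher on the second day by 0.56, 0.52 and 0.84, and Obp57a was lower by 0.41 on the log2 scale. With log2 mt:lrRNA as a covariate, which this design can hardly separate from the day, the signs of 5 of these turned. Obp83b was then at -0.01 (SE 0.16), Obp56g at -0.09 (SE 0.17) and Obp59a at -0.58 (SE 0.29). Obp57b was at 0.29 (SE 0.12) and Obp57a at 0.45 (SE 0.12), and of the 5 Obp57a alone was called (adjusted p = 0.0042). Obp83a was at 0.02 (adjusted p = 0.94).

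In female control heads the genes of lowest p were Obp56f, Obp56g, Obp28a, Obp19b, Obp57b and Obp59a. Obp28a averaged 114 ± 21.8 TPM on the second day and 63.3 ± 32.96 TPM on the first (SD, n = 12 each; 0.95, SE 0.19, adjusted p = 5.95e-05). Obp56f averaged 3.96 ± 1.76 TPM on the second day and 9.88 ± 4.90 TPM on the first (-1.11, SE 0.21, adjusted p = 2.69e-05). Obp56g, Obp19b and Obp59a were higher by 0.56, 0.98 and 0.91, and Obp57b was lower by 0.49 on the log2 scale. With log2 mt:lrRNA as a covariate, again hardly separable from the day, Obp59a was at -0.22 and not called (SE 0.42, adjusted p = 1), and no other of these 6 was called. Of 29 odour reception genes outside the family 15 in RNAi and 16 in control heads were higher and 0 lower, where 50.1% and 47.3% of all tested genes were higher.

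In male RNAi heads 4 genes were higher and 0 lower on the second day, where 12.9% and 0.53% of all tested genes were called. In male control heads 0 were called in either direction, with 4 at an unadjusted p under 0.05 (6.39% of all tested genes had such a p), where 0.00946% of all tested genes were higher and 0.0946% lower. Obp99b averaged 21.6 ± 11.2 TPM on the second day and 10.8 ± 14.2 TPM on the first in male RNAi heads (SD, n = 12 each; 1.68, SE 0.32, adjusted p = 0.000212). In male control heads Obp99b averaged 90.7 ± 28.4 TPM on the second day and 197 ± 69.5 TPM on the first, a change of -1.11 that was not called (adjusted p = 0.189). Obp99c in male RNAi heads averaged 678 ± 145 TPM on the second day and 423 ± 234 TPM on the first (0.86, SE 0.21, adjusted p = 0.00476). Obp19c and Obp56g were higher by 0.32 each (adjusted p = 0.0356 and 0.047), and neither was called with median centring, nor without the libraries at CT36 (Obp19c, adjusted p = 0.0745) or CT34 (Obp56g, adjusted p = 0.117).

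Single libraries were low or high in many Obp genes at once. How many of all tested genes shared this was not counted, so it cannot be called particular to the Obp genes. In female RNAi heads 15 of the 33 genes had their lowest value at CT32, and in female control heads 13 had it at CT36. In male RNAi heads 11 were lowest at CT34, and in male control heads 9 were lowest at CT38. The summed level of the 33 genes in those libraries was 4837, 6566, 5549 and 7386 TPM. Orco, the coreceptor of olfactory neurons and named here after its values were seen, was at its lowest of the group in the female RNAi library at CT32, with 14.2 TPM, and in the male control library at CT38, with 33.5 TPM, and was second lowest, with 21.7 TPM, in the female control library at CT36. In the male RNAi library at CT34 it was 32.6 TPM, near the middle of its group. In male control heads 11 Obp genes had their highest value at CT42, where Orco was also highest, at 66.7 TPM. The mt:lrRNA level was the highest of its group in each of the 4 low libraries, with 109462 TPM in female RNAi heads at CT32, 124735 TPM in female control heads at CT36, 194668 TPM in male RNAi heads at CT34 and 173072 TPM in male control heads at CT38. It was the lowest of its group, at 65432 TPM, in the male control library at CT42. The part of mt:lrRNA in these Obp values was not tested.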

How the data were processed

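Libraries were made from total RNA of heads with a stranded mRNA kit, per the labels' protocols. STAR, RSEM and the dm6 build are named in the submitters' processing notes, and no source used here gives a version. The authors deposited TPM, 1 value per gene and library, and every library sum was 1000000 within 0.79. The 10568 genes at or above 1 TPM in 24 libraries or more were fitted together in limma 3.58.1 (trend and robust, R 4.3.3) on log2(TPM + 1). A mean and 24 h cosine and sine terms were fitted for each of the 4 groups, with a day term added for the day comparisons. Level contrasts were two-sided, rhythms were F tests, and p-values were adjusted by Benjamini-Hochberg over all tested genes with a threshold of 0.05. The fits were tested on simulated data with independent noise, which held none of the library sets or shared shifts described above. Fold changes on this scale understate those of low genes. Positions come from Ensembl 115 (BDGP6, which is dm6). Python 3.11.15 with matplotlib 3.10.9 drew the figures.

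The Obp genes, the marker lists and the tests were chosen with earlier results of these data known. Full values go to genes called with a log2 change of at least 0.5, at most 10 per level comparison, and to the 6 of lowest p in each day or rhythm comparison. Alternatives covered the pseudocount (0.1 TPM), the filter, median centring, removal of mitochondrially encoded genes, a same-CT block, each day alone, the female mt:lrRNA sets, mt:lrRNA as a covariate and each library left out.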

Additional observations from a re-analysis of the deposited data

Results flagged for a closer look

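The effect of Achl RNAi on the log2(TPM + 1) scale differed between females and males, by the interaction of sex and RNAi, for 8 Obp genes, and these are given as values with no explanation. The female minus male difference was 3.04 for Obp99b, 0.92 for Obp56e and 0.74 for Obp99c, each of which fell in males and was not called in females. It was 0.39 for Obp19d and 0.37 for Obp56d, which fell in both sexes and further in males. It was 0.24 for Obp57c and 0.23 for Obp18a, which fell in males and were at -0.03 and -0.04 in females, neither called. It was -0.64 for Obp56c, which fell in females and was at 0.02 in males. With 1 library left out the call was lost for Obp57c in 23 of 96 fits, for Obp56d in 24 and for Obp99c in 12.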

How the results depend on the processing

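For each comparison the number of Obp genes called was recomputed under other settings, 1 of them chosen after seeing the data. RNAi in males called 17 genes instead of 26 without the male libraries of CT24 to CT38, the setting chosen after seeing the data, while 2745 instead of 6144 of all tested genes were called. The interaction of sex and RNAi called 8 genes, but 11 on the first day alone and 3 on the second. It called 5 without a filter on low values and 4 without those male libraries. The shares of all tested genes called were 16%, 4.85%, 8.39% and 6.81% in that order. Leaving out 1 library at a time gave 5 to 9. Rhythms in female RNAi heads, with 0 called, gave 2 without mitochondrially encoded genes, 1 within female libraries below 50000 TPM of mt:lrRNA and 0 to 1 with 1 library left out. The 1 rhythm in female control heads became 0 with a pseudocount of 0.1 TPM and 0 within those low libraries. The second day against the first called 20 genes in female RNAi heads, but 13 without mitochondrially encoded genes and 9 with log2 mt:lrRNA as a covariate. In female control heads the 20 became 0 with that covariate, which nearly coincides with the day in females and can hardly be told apart from it. Over all tested genes that covariate left 2768 instead of 6185 calls in RNAi and 0 instead of 6314 in control heads. Removing the mitochondrially encoded genes left 5118 such calls in female RNAi heads. In male RNAi heads the 4 became 2 without a filter, 2 with median centring and 2 without mitochondrially encoded genes. Over all tested genes 1416 calls became 976, 655 and 989 in that order. Leaving out 1 library gave 2 to 5 Obp genes. RNAi in females gave 14 to 17, RNAi in males 25 to 27, sex in RNAi heads 23 to 25 and sex in control heads 24 to 25 with 1 library left out. The cause was not tested for these. The within-day and within-set fits hold fewer libraries.

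Of the recomputed values of single called genes, 9 changed sign. Obp56g, female against male control, was 0.0117 on the second day alone. With females of at least 50000 TPM of mt:lrRNA against all males, the sex difference in RNAi heads was 0.0888 for Obp57b and -0.0244 for Obp83g. With log2 mt:lrRNA as a covariate, the day difference in female RNAi heads was -0.0056 for Obp83b, -0.0929 for Obp56g, -0.58 for Obp59a, 0.29 for Obp57b and 0.45 for Obp57a, and in female control heads it was -0.22 for Obp59a. Of 1311 recomputed values over 114 results of single genes, 1165 kept direction and side of the threshold, 137 kept only the direction and 9 reversed. That total covers called genes only and pools settings that change the fit little with others that change it more. The same-CT block gave 96, 1 and no reversal, and the second day alone gave 73, 23 and 1. With log2 mt:lrRNA as a covariate 6 kept only the direction, 6 reversed and none kept both.

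CT numbers do not pair animals, since each CT has 1 library per group. With a same-CT replicate block the number of genes called was 15 for RNAi in females, 27 for RNAi in males, 7 for the interaction, 23 for sex in RNAi heads and 25 for sex in control heads. Depth is unknown, so no counting error can be given, and genes near 1 TPM, such as Obp56c, Obp83g and, in males, Obp99a, are the least certain.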
